A study of Mus musculus with 12 samples.

Results

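The genes described here are 9 molecules of the B-cell receptor and the B-cell surface: Cd79a, Cd79b, Blnk, Btk, Blk, Ms4a1, Cd22, Tnfrsf13c and Cd40. They were chosen by name, as every probe set (a group of array probes read as 1 value) whose single gene symbol is one of these, and gave 13 of the 34945 single-symbol probe sets and 9 of the 18193 genes. RNA of unfractionated, uncultured bone marrow was measured on 1 Affymetrix mouse array per mouse in 3 double-knockout mice (nullizygous for both Fancc and Fancg), 3 Fancc-/- mice, 3 Fancg-/- mice and 3 wild-type C57Bl/6 mice. Both genes belong to the Fanconi anemia pathway of DNA crosslink repair; the genes were disrupted in the whole animal, and no age, sex or knockout strain background is given in the sources used here. All RNA inputs were 2 µg except that of Fancg-/- replicate 3, at 0.91 µg.

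The B-cell receptor signals through a pair of chains, Ig-alpha (Cd79a) and Ig-beta (Cd79b), which join the membrane immunoglobulin and are also part of the pre-B-cell receptor. Engagement of the receptor activates Src family kinases such as Blk, and the adaptor BLNK then brings the Tec family kinase Btk to its substrate. CD20 (Ms4a1), the inhibitory receptor CD22, the BAFF receptor (Tnfrsf13c) and CD40 gain in importance as B cells leave the pre-B stage and mature. In the text Cd79a, Cd79b, Blnk, Btk and Blk are called early and the other 4 genes mature. Btk is also used by myeloid cells and CD40 by dendritic cells and macrophages, so those transcripts are not restricted to B cells in marrow.

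Promoter windows are shown for the receptor chain Cd79a, the adaptor Blnk and Tnfrsf13c, of the 9 genes the least changed in the double knockout. Each runs 5′ to 3′ on the gene's own strand, from 250 bases before to 50 bases after the annotated start, and comes from RefSeq (build GRCm38.p6). Windows were found for 5 of the 9 genes. Capitals mark matches to 4 short motifs searched on both strands. They were CCCNNGGG (the palindrome bound by the B-lineage factor EBF), ATGCAAAT (the octamer), CAGGTG (an E-box form) and GAGGAA (an ETS core form). No marked matches overlap in the 3 windows.
Cd79a, chr7:24897247-24897546, plus strand: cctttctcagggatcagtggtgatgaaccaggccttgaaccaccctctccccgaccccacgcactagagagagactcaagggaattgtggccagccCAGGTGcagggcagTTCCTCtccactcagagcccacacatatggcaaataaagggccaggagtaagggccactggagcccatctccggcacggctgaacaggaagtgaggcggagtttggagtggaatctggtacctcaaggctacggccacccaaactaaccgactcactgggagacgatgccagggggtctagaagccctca
Blnk, chr19:40994172-40994471, minus strand: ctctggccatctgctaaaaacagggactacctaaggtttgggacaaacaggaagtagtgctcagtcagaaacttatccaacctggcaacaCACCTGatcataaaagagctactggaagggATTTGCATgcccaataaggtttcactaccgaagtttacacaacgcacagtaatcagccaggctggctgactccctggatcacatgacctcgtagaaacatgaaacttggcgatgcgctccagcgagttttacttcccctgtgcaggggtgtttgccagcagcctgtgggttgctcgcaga
Tnfrsf13c, chr15:82224331-82224630, minus strand: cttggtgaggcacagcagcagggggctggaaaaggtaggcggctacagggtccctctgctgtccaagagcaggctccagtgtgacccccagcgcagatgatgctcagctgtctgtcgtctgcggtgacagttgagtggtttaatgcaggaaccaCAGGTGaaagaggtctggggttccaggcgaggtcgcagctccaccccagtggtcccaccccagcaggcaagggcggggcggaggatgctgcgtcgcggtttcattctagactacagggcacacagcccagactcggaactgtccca
The Cd79a window held CAGGTG and GAGGAA, the Blnk window the octamer and CAGGTG, and the Tnfrsf13c window CAGGTG. Other forms of an EBF site, octamer, E-box or ETS core were not searched, so they are neither marked nor counted. A window without a mark can still hold such a form. Of the 5 windows, 4 held CAGGTG, against 20.2% of all 32851 promoter windows, and 2 held GAGGAA (28.3% of all). The octamer was in 1 (1.74% of all) and the EBF palindrome in 1, that of Cd22 (13.7% of all). These are matches of letters, and factor binding was not measured.

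B-cell receptor and surface genes had lower signal in Fancc-/- and double-knockout marrow than in wild-type marrow. In Fancc-/- marrow 8 of the 9 genes fell, against 2.36% of all genes tested, by 2.53-fold (Cd40) to 6.55-fold (Ms4a1). In the double knockout 7 of 9 fell, against 3.01% of all genes tested, by 1.60-fold (Btk) to 4.78-fold (Cd79b), and Tnfrsf13c and Cd40 did not pass the test. That count fell to between 0 and 2 without any 1 wild-type array or without double-knockout replicate 2 or 3. In Fancg-/- marrow all 9 values were lower than in wild type and 0 passed limma's adjusted threshold, against 0.0420% of all genes tested called lower. An unadjusted p below 0.05 was found for 7 of the 9 genes and for 834 of the 11908 tested. Because the marrow was not fractionated, fewer B-lineage cells and less RNA per cell cannot be told apart in any of these results.

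Values are the authors' log2 signals, so that a difference of 1 is a factor of 2. Tests are limma's moderated test in 1 model of all 12 arrays over 11908 genes, each standing as its brightest probe set, with Benjamini-Hochberg adjustment over those genes and a threshold of 0.05. Changes are given with their standard error (SE) and levels with their standard deviation (SD, n = 3 mice per group). Array medians ran from 4.79 to 4.87. The sex-linked transcripts Xist and Eif2s3y differed between the groups. Xist averaged 6.82 ± 0.73 in the double knockout, 11.69 ± 0.47 in Fancc-/- and 11.89 ± 0.52 in wild type, and Eif2s3y, which is Y-linked, averaged 9.00 ± 0.30, 3.14 ± 0.18 and 3.04 ± 0.15 in the same groups. In Fancg-/- replicates 1, 2 and 3, Xist read 11.31, 7.34 and 10.75 and Eif2s3y 7.64, 9.09 and 5.78. Replicates 1 and 3 labelled Fancg-/- thus carried both marks, and whether each holds RNA of a single mouse was not tested. Sex and genotype cannot be told apart in the double knockout against wild type or against Fancc-/-. Eif2s3y was also higher on every Fancg-/- array than on any wild-type or Fancc-/- array (limma adjusted p = 0.0201 and 0.0280). The same limit therefore holds for Fancg-/- against either of these groups. Fancg, the targeted gene, read 5.61 to 5.83 in the double knockout, 6.55, 6.00 and 6.64 in Fancg-/- and 6.80 to 6.86 in wild type; Fancc spanned 5.96 to 6.17 in its own knockout, against 5.90 to 6.18 in wild type, so it was not lower there. The Fancg signal of the libraries labelled Fancg-/- replicates 1 and 3 lay within the Fancc-/- range of 6.43 to 6.72 and above the double knockout. Changes in Fancg-/- without them are therefore also given for Cd79a, Blnk, Tnfrsf13c and Btk, with the mature minus early difference. Changes of the other genes in Fancg-/- are given with all 3 arrays. For both genes, where the probes lie relative to the disrupted part was not examined here.

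**Figure D1:**
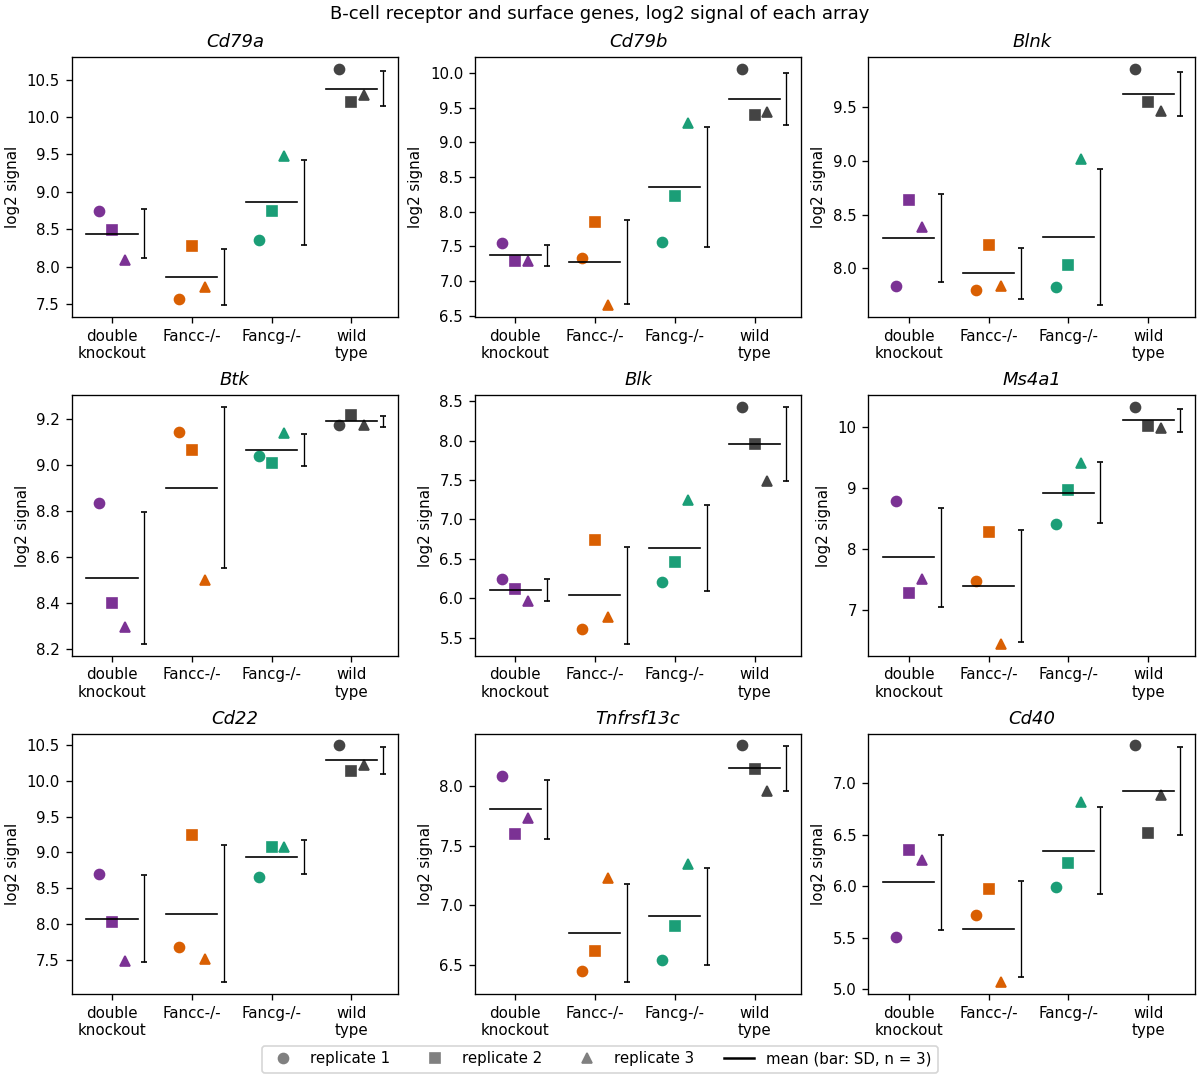
Log2 signal (vertical axis, its range set per panel) of the 9 genes on each of the 12 arrays, with the double knockout, Fancc-/-, Fancg-/- and wild type from left to right; symbols mark replicates, horizontal lines group means and bars the SD (n = 3). For Cd79a every knockout array lies below every wild-type array, while for Tnfrsf13c the double knockout lies near wild type.

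The receptor's signalling chains were read first. Cd79a, at chr7:24897497-24901858, read 8.74, 8.49 and 8.09 in the double knockout, 7.56, 8.28 and 7.73 in Fancc-/-, 8.36, 8.75 and 9.48 in Fancg-/-, and 10.64, 10.20 and 10.30 in wild type. All 9 knockout arrays were below all 3 wild-type arrays, and Fancg-/- replicate 3 came closest to them. Cd79a fell by 1.94 ± 0.28 (SE; limma adjusted p = 0.0105) in the double knockout and fell by 2.52 ± 0.28 (limma adjusted p = 0.00120), or 5.75-fold, in Fancc-/-. In Fancg-/- its change was -1.52 ± 0.28 (limma adjusted p = 0.114). Cd79b, at chr11:106311341-106314562, read 7.55, 7.29 and 7.29 in the double knockout, 7.34, 7.85 and 6.65 in Fancc-/-, 7.56, 8.22 and 9.29 in Fancg-/-, and 10.06, 9.39 and 9.43 in wild type. Here Fancg-/- replicate 3 lay only just under the lowest wild-type array. Cd79b fell by 2.26 ± 0.39 (limma adjusted p = 0.0162) in the double knockout and fell by 2.35 ± 0.39 (limma adjusted p = 0.00707) in Fancc-/-, and its change in Fancg-/- was -1.27 ± 0.39 (limma adjusted p = 0.391). Both chains thus had changes of similar size in each group.

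Among the cytoplasmic signalling molecules, the adaptor Blnk (chr19:40928927-40994221) read 7.83, 8.64 and 8.38 in the double knockout, 7.80, 8.22 and 7.84 in Fancc-/-, 7.82, 8.04 and 9.01 in Fancg-/-, and 9.85, 9.55 and 9.46 in wild type. No knockout array reached the wild-type range. Blnk fell by 1.34 ± 0.29 (limma adjusted p = 0.0279) in the double knockout and fell by 1.67 ± 0.29 (limma adjusted p = 0.00817) in Fancc-/-, with a change of -1.33 ± 0.29 (limma adjusted p = 0.182) in Fancg-/-. The Src family kinase Blk (chr14:63372837-63417187) read 6.24, 6.12 and 5.96 in the double knockout, 5.61, 6.74 and 5.76 in Fancc-/-, 6.21, 6.46 and 7.25 in Fancg-/-, and 8.42, 7.96 and 7.48 in wild type. Its wild-type arrays spread over almost 1 log2 unit, and still no knockout array overlapped them. Blk fell by 1.85 ± 0.33 (limma adjusted p = 0.0174) in the double knockout and fell by 1.92 ± 0.33 (limma adjusted p = 0.00817) in Fancc-/-; in Fancg-/- its change was -1.32 ± 0.33 (limma adjusted p = 0.266).

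The kinase Btk (X chromosome, chrX:134542334-134583628) had the smallest change of the 9 genes in both single knockouts. It read 8.83, 8.40 and 8.30 in the double knockout, 9.14, 9.06 and 8.50 in Fancc-/-, 9.04, 9.01 and 9.14 in Fancg-/-, and 9.17, 9.22 and 9.17 in wild type. The wild-type arrays were tightly grouped (SD 0.02), and the knockout arrays lay under them, less than 0.2 from the wild-type mean on 5 of the 6 single-knockout arrays. Btk fell by 0.68 ± 0.18 (limma adjusted p = 0.0495) in the double knockout, just inside the threshold, and passed in 9 of 25 alternatives, while its changes of -0.29 ± 0.18 in Fancc-/- (limma adjusted p = 0.399) and -0.13 ± 0.18 in Fancg-/- (limma adjusted p = 0.965) did not pass. With Btk on the X chromosome, the difference in Xist between the double knockout and wild type stands beside this value. Fitted with Xist as a covariate, the double-knockout change was -0.30 ± 0.37 (limma adjusted p = 1.00). Xist was lower on every double-knockout array than on any wild-type array, and 0 of all 11908 tested genes passed in that fit. Its p-value therefore cannot decide about Btk in particular.

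The mature surface molecules began with the pan-B marker CD20. Ms4a1 (chr19:11249679-11266149) read 8.79, 7.27 and 7.51 in the double knockout, 7.47, 8.27 and 6.44 in Fancc-/-, 8.40, 8.96 and 9.40 in Fancg-/-, and 10.32, 10.02 and 9.97 in wild type. The knockout arrays were all lower, with a spread of 1.51 between the highest and lowest double-knockout array. Ms4a1 fell by 2.25 ± 0.46 (limma adjusted p = 0.0230) in the double knockout and fell by 2.71 ± 0.46 (limma adjusted p = 0.00760) in Fancc-/-, and its change in Fancg-/- was -1.18 ± 0.46 (limma adjusted p = 0.615). A dimmer Ms4a1 probe set gave -2.77, -3.35 and -1.32 for the double knockout, Fancc-/- and Fancg-/-, in the same order of size. Cd22 (chr7:30865404-30880342), a sialic acid-binding inhibitor of receptor signalling, read 8.70, 8.03 and 7.49 in the double knockout, 7.68, 9.24 and 7.50 in Fancc-/-, 8.65, 9.07 and 9.07 in Fancg-/-, and 10.49, 10.13 and 10.23 in wild type. Again the groups did not overlap with wild type. Cd22 fell by 2.21 ± 0.40 (limma adjusted p = 0.0176) in the double knockout and fell by 2.14 ± 0.40 (limma adjusted p = 0.0123) in Fancc-/-, and read -1.35 ± 0.40 (limma adjusted p = 0.364) in Fancg-/-. Its second probe set gave -2.43, -2.54 and -1.81 in these groups.

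Tnfrsf13c, the receptor for the survival factor BAFF (chr15:82221742-82224380), read 8.09, 7.60 and 7.74 in the double knockout, 6.45, 6.61 and 7.23 in Fancc-/-, 6.54, 6.83 and 7.35 in Fancg-/-, and 8.34, 8.15 and 7.96 in wild type. Both single knockouts were below every wild-type array, whereas the double knockout overlapped wild type and was above every array of either single knockout. The change in the double knockout was -0.34 ± 0.24 (limma adjusted p = 0.428), with a 95% interval of -0.87 to 0.18, not adjusted for the number of genes. Tnfrsf13c fell by 1.39 ± 0.24 (limma adjusted p = 0.00817) in Fancc-/-, and its change in Fancg-/- was -1.25 ± 0.24 (limma adjusted p = 0.129). Set directly against the single knockouts, the double knockout was at 1.04 ± 0.24 over Fancc-/- (limma adjusted p = 0.0830) and 0.90 ± 0.24 over Fancg-/- (limma adjusted p = 0.178), neither of which passed. In each of these comparisons 1 of the 9 genes, Tnfrsf13c, was higher on every double-knockout array, against 8.68% and 8.87% of all tested genes.

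Cd40 (chr2:165055614-165071654), the receptor for T-cell help, was measured by 3 probe sets, and the brightest read 5.51, 6.35 and 6.25 in the double knockout, 5.72, 5.97 and 5.07 in Fancc-/-, 5.99, 6.23 and 6.81 in Fancg-/-, and 7.37, 6.52 and 6.88 in wild type. The double-knockout and Fancc-/- arrays were all below wild type, and Fancg-/- overlapped it through replicate 3. Cd40 fell in Fancc-/-, by 1.34 ± 0.31 (limma adjusted p = 0.0325), and its changes were -0.89 ± 0.31 (limma adjusted p = 0.109) in the double knockout and -0.58 ± 0.31 (limma adjusted p = 0.790) in Fancg-/-. The other probe sets gave -0.57 and -0.56 in the double knockout, -1.04 and -1.26 in Fancc-/-, and -0.37 and -0.55 in Fancg-/-. The call in Fancc-/- passed in 15 of 24 alternatives that tested Cd40 and was lost in 9. With the replicate number as a block its adjusted p was 0.0540 by limma, and the other 7 genes that fell in Fancc-/- passed. The call was also lost without Fancc-/- replicate 1 (adjusted p = 0.0607) or 3 (0.0784), or without wild-type replicate 1 (0.104), 2 (0.0541) or 3 (0.102), without Fancg-/- replicates 1 and 3 together (0.0547), with only the groups compared (0.0596) and with Xist as a covariate (0.0528), by limma.

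**Figure D2:**
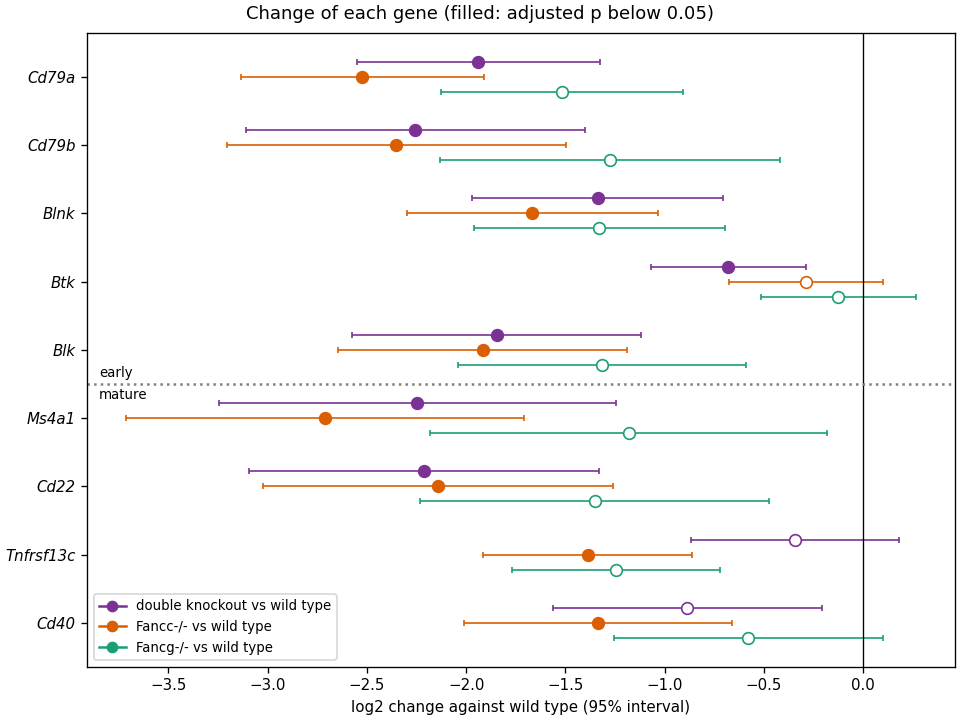
Log2 change against wild type (horizontal axis) with its unadjusted 95% interval for each gene in the double knockout, Fancc-/- and Fancg-/-; filled circles passed the limma test at an adjusted p below 0.05. Ms4a1 in Fancc-/- lies farthest from 0, at -2.71, and the intervals that reach 0 are those of Btk in both single knockouts, Tnfrsf13c in the double knockout and Cd40 in Fancg-/-.

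All 9 genes passed the filter on dim values, so each was tested in every comparison. In Fancc-/- the 8 genes that fell were 4 early and 4 mature ones, and 9 of 9 were lower on every Fancc-/- array than on any wild-type array, against 13.1% of all tested genes. In the double knockout the 7 were 5 early and 2 mature genes, and 8 of 9 did not overlap with wild type, against 16.9%. In Fancg-/- 8 of 9 did not overlap with wild type, against 8.61%. The median change of the 9 genes was -1.85 in the double knockout, -1.92 in Fancc-/- and -1.27 in Fancg-/-, beside medians over all tested genes of -0.01, -0.01 and 0.01. These comparisons share the same wild-type arrays. Without Fancg-/- replicates 1 and 3, the remaining Fancg-/- array gave -1.63 for Cd79a, -1.59 for Blnk, -1.33 for Tnfrsf13c and -0.18 for Btk, and 0 of 9 passed by limma, with the lone array assumed to vary like the other groups.

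The call in the double knockout depended on single arrays. By limma 1, 0 and 2 of the 9 genes passed without wild-type replicate 1, 2 or 3, and 1 and 0 passed without double-knockout replicate 2 or 3. Over all genes, 133, 14 and 55 passed without wild-type replicates 1, 2 and 3 and 57 and 19 without double-knockout replicates 2 and 3, against 629 with all arrays. Over the fits that left out 1 array, the double-knockout change ran from -2.09 to -1.76 for Cd79a, -2.37 to -2.04 for Cd79b, -2.71 to -1.95 for Ms4a1, -0.84 to -0.57 for Btk, -1.09 to -0.62 for Cd40 and -0.48 to -0.24 for Tnfrsf13c. All 9 genes kept a negative change in these fits. In Fancc-/- 7 of 9 passed in every alternative run, and Cd40 was the exception among the 8.

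Early and mature molecules were compared by their changes, since levels of different probe sets cannot be set against each other. The early genes had a median change of -1.85 in the double knockout, -1.92 in Fancc-/- and -1.32 in Fancg-/-, and the mature genes had medians of -1.55, -1.77 and -1.21 in the same groups. Mature minus early, the difference was 0.30 in the double knockout, 0.15 in Fancc-/- and 0.10 in Fancg-/-. By array it was 0.35, 0.42 and 0.36 in the double knockout, 0.14, 0.11 and -0.12 in Fancc-/-, 0.18, 0.31 and -0.14 in Fancg-/-, and -0.05, -0.04 and 0.06 in wild type. The 3 double-knockout arrays were above all wild-type arrays in this difference, and the arrays of the single knockouts lay on both sides of 0. The 2 classes were each mixed: in the double knockout Ms4a1 and Cd22 had changes as large as that of Cd79b, and Tnfrsf13c and Cd40 had smaller ones, while Btk had the smallest change of the early genes in every knockout group. With the filter at the percentile 75, which leaves out Cd40, the difference was -0.37 in the double knockout and -0.23 in Fancc-/-. The sign of the difference thus depended on which mature genes were counted. No test was made of these class values.

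**Figure D3:**
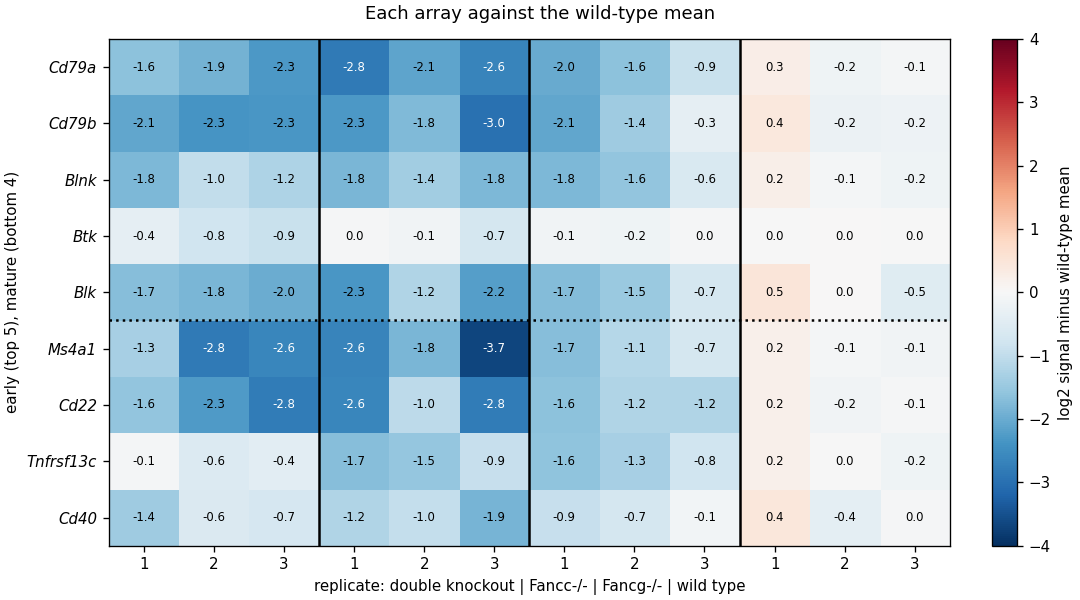
Log2 signal of each array minus the wild-type mean of the gene (colour and printed value), for the early genes above and the mature genes below the dotted line, with the 3 arrays each of the double knockout, Fancc-/-, Fancg-/- and wild type from left to right. Fancg-/- replicate 3 is palest within its group, and the Tnfrsf13c row is pale in the double knockout.

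Arrays of a group also differed from each other. Fancg-/- replicate 3 was the highest of its group for 9 of 9 genes, and it was the array with the lower RNA input and one of those with both sex marks; their part in this was not tested. Its median over the 9 genes lay at -0.70 from the wild-type mean, and those of replicates 1 and 2 at -1.70 and -1.33. Fancc-/- replicate 2 was the highest of its group for 7 genes, the exceptions being Btk and Tnfrsf13c, and its median lay at -1.40, and those of replicates 1 and 3 at -2.29 and -2.20. Double-knockout replicate 1 was the highest of its group for 7 genes, with Ms4a1 at 8.79 there, but it was the lowest for Blnk, at 7.83, and for Cd40, at 5.51. Fancc-/- replicate 3 had the lowest Ms4a1 of any array, at 6.44, and at the same time the highest Tnfrsf13c of its group, at 7.23.

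**Figure D4:**
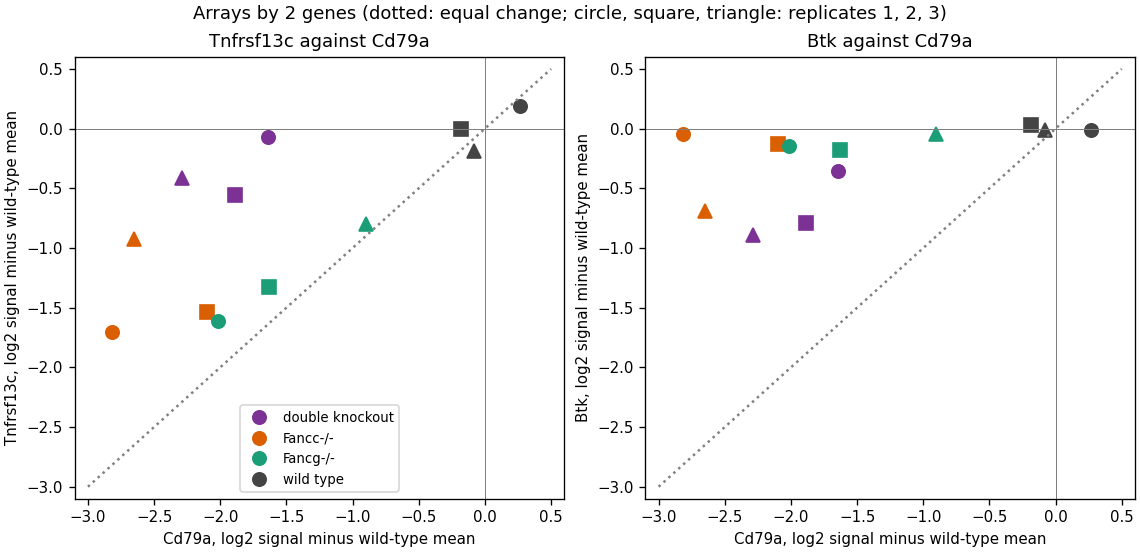
Tnfrsf13c (left) and Btk (right) against Cd79a on each array, all as log2 signal minus the wild-type mean; dotted lines mark equal change and symbols replicates. The double-knockout arrays lie at -0.07 to -0.55 for Tnfrsf13c, and the 6 single-knockout arrays lie at -0.80 or lower.

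Losing both Fanconi genes was set against losing 1. The sex marks also differed between the double knockout and Fancc-/-, so sex and genotype cannot be told apart in that comparison. Eif2s3y was higher on every Fancg-/- array than on any Fancc-/- array, so the same holds between the single knockouts. Compared with Fancc-/-, 0 of 9 genes passed in the double knockout by limma (all tested genes: 0% lower, 0.0084% higher), 2 of 9 had an unadjusted p below 0.05 (Btk, at -0.39, and Tnfrsf13c), and the differences for Cd79a, Cd79b and Ms4a1 were 0.58 (95% interval -0.03 to 1.20), 0.09 (-0.76 to 0.95) and 0.46 (-0.54 to 1.47). Compared with Fancg-/-, 0 of 9 passed by limma, 4 of 9 had an unadjusted p below 0.05, 8 of 9 values were lower in the double knockout, and Cd79b (-0.98 ± 0.39, adjusted p = 0.281) and Btk (-0.55 ± 0.18, adjusted p = 0.213) did not overlap between the groups, a share to be read against 10.5% of all tested genes. Between the single knockouts, Fancg-/- was above Fancc-/- in all 9 values, and 3 genes (Cd79a, Ms4a1 and Cd40) did not overlap, against 7.16% of all tested genes, with Ms4a1 at 1.53 ± 0.46 (limma adjusted p = 0.353) and Cd79a at 1.01 ± 0.28 (adjusted p = 0.321). By limma 0 of 9 passed and 4 of 9 had an unadjusted p below 0.05, against 0.0840% of all tested genes called lower and 0.0252% called higher. Over all genes 1, 0 and 13 passed in these 3 comparisons, with 2345, 1714 and 1076 at an unadjusted p below 0.05.

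The interaction asks whether the double-knockout change differs from the sum of both single-knockout changes, and positive values mean a smaller decrease than that sum. It was positive for 8 of 9 genes, 8 of 9 had an unadjusted p below 0.05 (1771 of the 11908 tested genes did), and 0 passed by limma, where 0.0084% of all tested genes were called higher. Tnfrsf13c had the largest value, 2.29 ± 0.34 (limma adjusted p = 0.0664), followed by Cd79a at 2.10 ± 0.40 (adjusted p = 0.0831) and Blnk at 1.66 ± 0.41 (adjusted p = 0.121). Btk was the exception, at -0.27 ± 0.25 (adjusted p = 0.649), with a 95% interval of -0.82 to 0.28. This term uses the Fancg-/- arrays, to which the limits above apply. It also uses the double knockout, whose sex marks differed from those of Fancc-/- and wild type.

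Other genes of the pathway were counted in the same way. In the double knockout 3.01% of all tested genes were called lower and 2.27% higher, and in Fancc-/- 2.36% lower and 2.18% higher. Of 27 measured genes of receptor signalling, 6 fell and 0 rose in the double knockout (median -0.42), 7 fell and 0 rose in Fancc-/- (median -0.55), and 0 passed in Fancg-/- (median -0.25). In both the double knockout and Fancc-/- the decreases included Cd72, a receptor that restrains signalling (-2.00 ± 0.38 and -2.30 ± 0.38), the scaffold Bank1 (-1.71 ± 0.37 and -1.64 ± 0.37), the co-receptor Cr2 (-1.04 ± 0.26 and -1.68 ± 0.26) and the phosphatase Ptpn6 (-0.65 ± 0.12 and -0.76 ± 0.12). Siglecg, an inhibitory Siglec like Cd22, fell in the double knockout (-1.56 ± 0.41), as did the kinase subunit Pik3cd (-1.24 ± 0.22). Malt1, a protease of the NF-kB branch, fell in Fancc-/- (-0.90 ± 0.15) and was at -0.03 ± 0.15 in the double knockout. The kinase Syk, which acts directly downstream of the Ig-alpha and Ig-beta chains, was at -0.62 ± 0.17 in the double knockout (limma adjusted p = 0.0583), fell by 0.73 ± 0.17 in Fancc-/- (adjusted p = 0.0345) and was at -0.60 ± 0.17 in Fancg-/- (adjusted p = 0.355). The inhibitory Fc receptor Fcgr2b, which myeloid cells also carry, was at -0.34, -0.27 and -0.21 in these groups and did not pass.

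Of 22 other B-cell surface genes, 7 fell and 1 rose in the double knockout (median -0.68), 14 fell and 0 rose in Fancc-/- (median -1.23), and 0 passed in Fancg-/- (median -0.70). Cd72, Cr2 and Fcgr2b are in both this list and that of receptor signalling, and are counted in each; some of its other genes are also in the lists that follow. Fcmr, the Fc receptor for IgM, fell by 2.35 ± 0.47 in the double knockout and fell by 2.66 ± 0.47 in Fancc-/-, and Fcrla, an Fc receptor-like protein, changed by -2.26 ± 0.45 and -2.39 ± 0.45 in these groups, past the threshold in both. Fcer2a, the low-affinity IgE receptor CD23 of mature B cells, was at -1.39 ± 0.37 in the double knockout (limma adjusted p = 0.0522) and fell by 2.10 ± 0.37 in Fancc-/-. The costimulatory ligand Cd86, which dendritic cells and macrophages also express, was the gene of this list that rose in the double knockout (1.38 ± 0.25, adjusted p = 0.0176). Of 9 genes of the pre-B receptor list, 5 fell in the double knockout (median -2.19), 6 in Fancc-/- (median -2.33) and 0 passed in Fancg-/- (median -1.39). Rag1, a recombinase of antigen receptor genes, changed by -3.92 ± 0.60 and -3.94 ± 0.60, and the surrogate light chain gene Vpreb1 by -3.82 ± 0.75 and -4.64 ± 0.75, in the double knockout and Fancc-/-, all past the threshold.

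Of 13 measured partners of Cd40 and the BAFF receptor (ligands, other receptors and adaptors), Traf5, an adaptor of TNF receptors, was the gene that fell, by 0.87 ± 0.20 in the double knockout (limma adjusted p = 0.0364) and fell by 0.84 ± 0.20 in Fancc-/- (adjusted p = 0.0392), and 0 passed in Fancg-/-. Tnfsf13b, which encodes BAFF, was at -0.73 ± 0.52 in the double knockout and -0.83 ± 0.52 in Fancc-/-, and Cd40lg at -0.07 ± 0.13 and 0.08 ± 0.13. The list medians were -0.05, -0.36 and -0.17 in the double knockout, Fancc-/- and Fancg-/-.

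**Figure D5:**
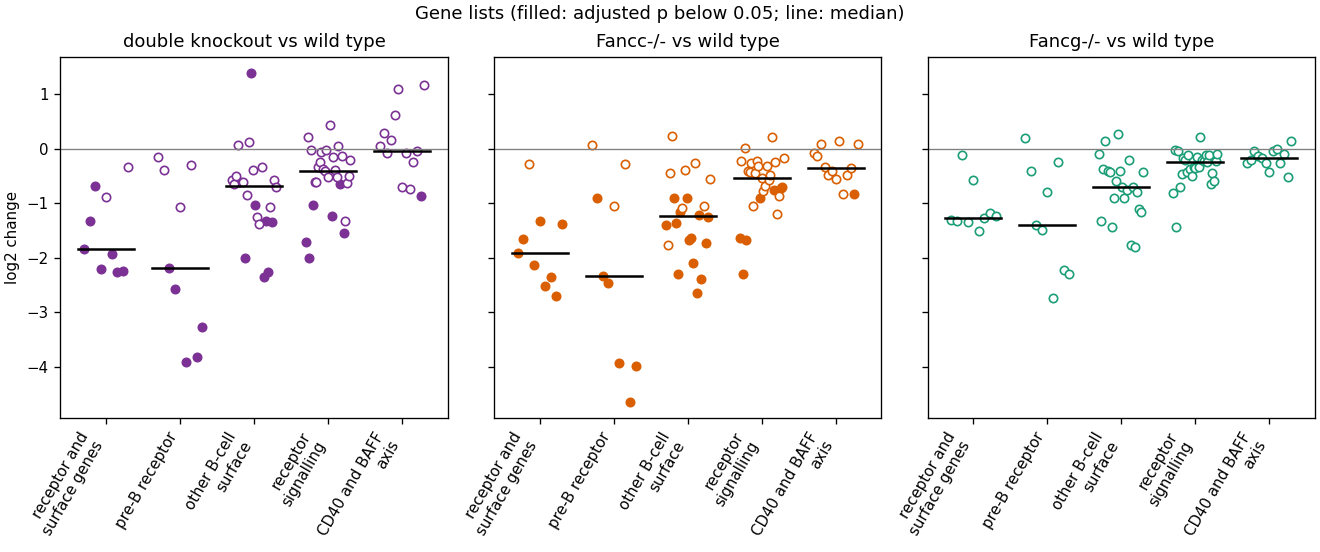
Log2 change (vertical axis) of each gene in the 9 receptor and surface genes and 4 pathway lists, for the double knockout, Fancc-/- and Fancg-/- against wild type; filled circles passed limma's test and lines are medians. The receptor genes and the pre-B receptor list lie lowest, and the filled circle above 0 in the double knockout is Cd86.

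Genes outside the 9 were ranked by how closely they followed Cd79a, as the root mean square difference of their values, each minus the gene's wild-type mean, over 12 arrays. The nearest were Atp1b1 (0.35), Srpk3 (0.35), the surface receptor Cd72 (0.35), the MHC class II accessory chain H2-Ob (0.36) and Snn (0.37). Within the 9 genes, Cd79b (0.33), Blk (0.37) and Cd22 (0.41) were nearest to Cd79a, while Tnfrsf13c (1.03) and Btk (1.49) were farthest. The nearest to Ms4a1 were H2-Ob (0.37), Srpk3 (0.42), Fcmr (0.44), Cd72 (0.51) and Sox4 (0.52).

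Marker lists of marrow cells were read beside these genes; several B-cell markers, such as Bank1, Fcrla and Vpreb1, are also in the lists above. Of 9 measured B-cell markers that are not among the 9 genes described, 8 fell in the double knockout (median -2.39), 7 in Fancc-/- (median -2.47) and 0 passed in Fancg-/- (median -1.81); their summed linear signal ran from 810.2 to 1315 in the double knockout, 705.8 to 1238 in Fancc-/-, 980.3 to 3114 in Fancg-/-, against 3633 to 5465 in wild type. Of 7 tested dendritic cell markers, 1 fell in the double knockout and 2 in Fancc-/-, among them Ly6d, which B-lineage progenitors also express, and the sums over all 8 measured were 1133 to 1552, 642.3 to 1224, 965.8 to 1364 and 1966 to 2450 in the same order of groups. Of 8 tested erythroid markers, 2 rose in the double knockout and 5 in Fancc-/-, and the sums over all 9 measured were 22536 to 35210, 32370 to 41306, 24322 to 26631 and 16524 to 20494. Monocyte and macrophage markers, relevant to Btk and Cd40, had 0 of 9 past the limma test in each group, with sums of 9437 to 12431 in the double knockout, 8278 to 11002 in Fancc-/-, 10985 to 13246 in Fancg-/-, against 11284 to 13252 in wild type. Of 10 neutrophil markers, Mpo and Elane fell in the double knockout (-0.31 and -0.33), with sums of 110931 to 111797 in the double knockout, 104635 to 117428 in Fancc-/-, 112475 to 123196 in Fancg-/-, against 118540 to 122650 in wild type. Of 7 plasma cell markers 1, Irf4, fell in both the double knockout (-1.35) and Fancc-/- (-1.54). Of 9 T and NK cell markers 0 passed in the double knockout, and 2, Gzma and Cd2, fell in Fancc-/-, with sums of 1952 to 2540 in the double knockout, 1164 to 2728 in Fancc-/-, 2811 to 3018 in Fancg-/-, against 2868 to 3225 in wild type. Of 5 megakaryocyte and 5 tested stroma markers 0 passed in any of the 3 groups by limma. The part of these cell types in the results was not tested.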

How the data were processed

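RNA of whole bone marrow from 12 mice, 3 per group and 1 array per mouse, was amplified and hybridized to an Affymetrix mouse array. The authors deposited log2 values, 1 for each probe set and array; per the submitters' processing notes RMA and Partek were used, with settings and versions not given in the sources used here. RMA as usually run gives all arrays nearly the same distribution and compresses dim signals. Of 45101 probe sets, 64 array controls, 932 with several symbols and 9160 with none were left out, and 0 columns were unmapped. Of 34945 single-symbol probe sets, 34741 matched GRCm38.p6 gene IDs. A gene was its probe set of highest mean, tested if above the array median on at least 3 arrays, which kept 11908 genes. Limma 3.58.1 in R 4.3.3 fitted 7 contrasts with a variance trend and 8 residual degrees of freedom, 2-sided; the code was tested on simulated data. The small number of mice sets the precision. Each array was taken as 1 mouse and used as a replicate. For Fancg-/- replicates 1 and 3, which carried both sex marks, that was not tested.

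Some genes of the lists are not reported here. The 9 genes were named in full; from each list, up to 4 genes that passed by size, or 3 of smallest p, could be named, as could Cr2, Cd72, Fcgr2b, Syk and the 5 genes nearest to Cd79a and to Ms4a1; Ptpn6, Tnfsf13b and Cd40lg were named after their values were seen. The members, lists and alternatives were chosen with earlier results of these data known. The labels do not say what a shared replicate number means. Deviations of same-numbered arrays correlated between -0.37 and 0.20, over 0.1 in 6 of 18 pairs. Those of differently numbered arrays correlated between -0.23 and 0.36, over 0.1 in 11 of 36 pairs, a similar share. Between Fancc-/- and wild type all 3 same-numbered pairs were over 0.1 (0.16, 0.15 and 0.16). For that comparison the fit with the replicate number as a block is therefore given beside the call it changes. Alternatives covered the filter, probe sets, array scaling, variance model, array weights, samples in the fit, a replicate block, Xist as a covariate and left-out arrays.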

Additional observations from a re-analysis of the deposited data

How the results depend on the processing

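In Fancc-/- 7 or 8 of the 9 genes passed in each of the 25 alternatives, and 7 passed in all of them. In the double knockout 6 or 7 passed in 19 of 25 alternatives, and 0 to 7 passed when 1 array was left out. With Xist as a covariate 0 passed there (Cd79a -1.80, Cd79b -2.19, Blk -1.79 and Btk -0.30, with adjusted p = 1.00 by limma). That fit passed 0 of all 11908 tested genes here, with Xist lower on every double-knockout array, so it singles out none of them. In Fancg-/- 0 passed with all arrays, 7 with array weights, 3 with only the groups compared, and 0 to 3 when 1 array was left out (3, namely Cd79a, Blnk and Tnfrsf13c, without Fancg-/- replicate 3; 1 without Fancc-/- replicate 3). Without Fancg-/- replicates 1 and 3 together, 0 passed in Fancg-/-, and the mature minus early difference there was 0.31. With array weights 2, 4 and 3 genes passed for the double knockout against Fancc-/-, the double knockout against Fancg-/- and the interaction, against 0 otherwise; left-out arrays gave 0 to 1, 0 to 1 and 0 to 3, and the interaction had 1 without a filter. No gene passed between the single knockouts in any alternative. The mature minus early difference in Fancc-/- was -0.23 with the filter at the percentile 75, 0.037 with array weights, 0.37 without Btk (chosen after seeing the data) and 0.018 to 0.33 with arrays left out; in the double knockout it was -0.37 with that filter, 0.35 with the mean of all probe sets and 0.16 to 0.40 with arrays left out; in Fancg-/- it was -0.03 to 0.27 with arrays left out. With Xist as a covariate the Btk value in Fancg-/- was 0.029, against -0.13. With the replicate number as a block, 7 genes passed in Fancc-/- (Cd40 at an adjusted p of 0.0540 by limma), 6 in the double knockout and 0 in Fancg-/-. Fitting every probe set on its own, chosen after seeing the data, gave 8, 0 and 6 genes in Fancc-/-, Fancg-/- and the double knockout. Over all genes, with 540, 6 and 629 passing in Fancc-/-, Fancg-/- and the double knockout, left-out arrays gave 170 to 714, 0 to 31 and 14 to 1849, and the other alternatives 249 to 755, 0 to 277 and 0 to 3382. The causes were not tested beyond this.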
